A study of Arabidopsis thaliana with 16 samples.

Results

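Roots of double mutant Arabidopsis thaliana seedlings, which carry the mctp3-2 and mctp4-1 alleles together, were set against roots of the mctp4-1 single mutant, to ask what the mctp3-2 allele adds in plants that already lack normal MCTP4 transcript. The comparison used 8 of the 16 libraries of the study, 4 of the double and 4 of mctp4-1, matched by the replicate number in their labels. All 4 genotypes, double, mctp4-1, mctp3-2 and wild type (WT), were in the Col-0 ecotype, and roots were taken from 5-day-old seedlings grown on plates under long days. Messenger RNA was sequenced, and gene levels were given as FPKM, fragments scaled to transcript length and to the mapped fragments of the library, so levels can be compared between genes. The 8 mctp3-2 and WT libraries served to show what the same allele did where MCTP4 was intact. Of the 33560 genes in the matrix, 19239 reached an FPKM of at least 1 in 4 or more of the 16 libraries and were tested. It is not stated in the labels if the 4 libraries of a genotype are separate plantings, how each allele disrupts its gene or how many independent lines stand behind an allele, so a p-value here covers the library-to-library spread, which may be technical.

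MCTP proteins (multiple C2 domain and transmembrane region proteins) span the endoplasmic reticulum membrane and carry C2 domains that bind lipids. MCTP3 and MCTP4 sit in plasmodesmata, the membrane-lined channels between plant cells, where the endoplasmic reticulum runs close to the plasma membrane, and they help tether both membranes. The loss of both proteins is known to reduce plant growth and cell-to-cell movement, while the single mutants are much milder.

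The 16 libraries were of similar extent, with FPKM sums of 887430 to 1016221 and 18556 to 18786 genes at 1 FPKM or more. The libraries of each genotype fell into replicates 1 and 2 and replicates 3 and 4: deviations from the genotype means correlated at 0.185 to 0.556 within those number groups and at −0.518 to −0.186 between them. The replicate number, by which the libraries were matched, entered the fit as a block. Summed levels of marker genes of the root hair, endodermis, xylem, phloem, root cap and stem cell niche were above 0 in all 8 libraries. Each marker reached 1 FPKM in at least 1 of the 8 libraries, and 0 of these markers were called as changed, beside 0.312% called of all genes tested. At that share a call is unlikely among so few markers, so this count does not show that the cell makeup was unchanged. In contrast, 2 seed storage genes were at 0 in all 8 libraries. The summed level of 4 photosynthesis genes, which mark green tissue, was 74.8, 281, 101 and 67.8 FPKM in double replicates 1 to 4 and 162, 117, 80.2 and 94.1 FPKM in mctp4-1 replicates 1 to 4. Double replicate 2 was the highest of the 8 in this sum.

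The targeted genes came first. MCTP4 (AT1G51570, chr1:19122161-19125375 in TAIR10.1, minus strand) was at 2.98, 2.94, 3.09 and 3.31 FPKM in double replicates 1 to 4 and at 2.55, 5.00, 5.50 and 4.26 FPKM in mctp4-1 replicates 1 to 4. It was at 26.9 to 30.2 FPKM in mctp3-2 roots and 22.9 to 29.4 FPKM in WT roots, so the low MCTP4 level marked both genotypes with the mctp4-1 allele, and the double held 11.7% of the WT mean. Between double and mctp4-1 it differed by −0.35 ± 0.13 SE on the log2(FPKM + 1) scale, which did not pass the test (limma adjusted p = 0.536).

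MCTP3 (AT3G57880, chr3:21430922-21434648, minus strand) was higher, not lower, in roots with the mctp3-2 allele. Its level was 14.3, 13.1, 14.6 and 13.0 FPKM in double replicates 1 to 4 and 5.53, 6.09, 7.05 and 8.03 FPKM in mctp4-1 replicates 1 to 4. In roots with intact MCTP4 it was 16.4, 13.3, 13.1 and 12.4 FPKM in mctp3-2 and 6.07, 6.39, 6.51 and 6.61 FPKM in WT. In each case the groups did not overlap. The log2 change was 0.95 ± 0.11 SE for double against mctp4-1 (limma adjusted p = 0.000898) and 0.99 for mctp3-2 against WT (limma adjusted p = 0.000606), and a gene-level value does not show which part of the transcript was present. SCE1 (AT3G57870, chr3:21428496-21430398, minus strand), the SUMO-conjugating enzyme gene next to MCTP3, rose with it. SCE1 was at 279.8, 312, 248 and 255 FPKM in double replicates and at 206, 201, 191 and 192 FPKM in mctp4-1 replicates, a log2 change of 0.46 ± 0.06 SE (limma adjusted p = 0.0032), and it rose by 0.48 in mctp3-2 against WT (limma adjusted p = 0.0034). The SCE1 call in double against mctp4-1 held whichever 1 of the 8 libraries was left out. It was lost without the block (limma adjusted p = 0.169) and with the 8 compared libraries alone (limma adjusted p = 0.17). Within replicates 1 and 2 (limma adjusted p = 0.464) and replicates 3 and 4 (limma adjusted p = 0.173) it was lost too. The gene annotations of SCE1 and MCTP3 do not overlap. Of 45 annotated genes within 50 kb of MCTP3, 24 were tested and SCE1 was the 1 called, and of 31 within 50 kb of MCTP4, 20 were tested and 0 were called, while 0.312% of all genes tested were called.

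**Figure D1:**
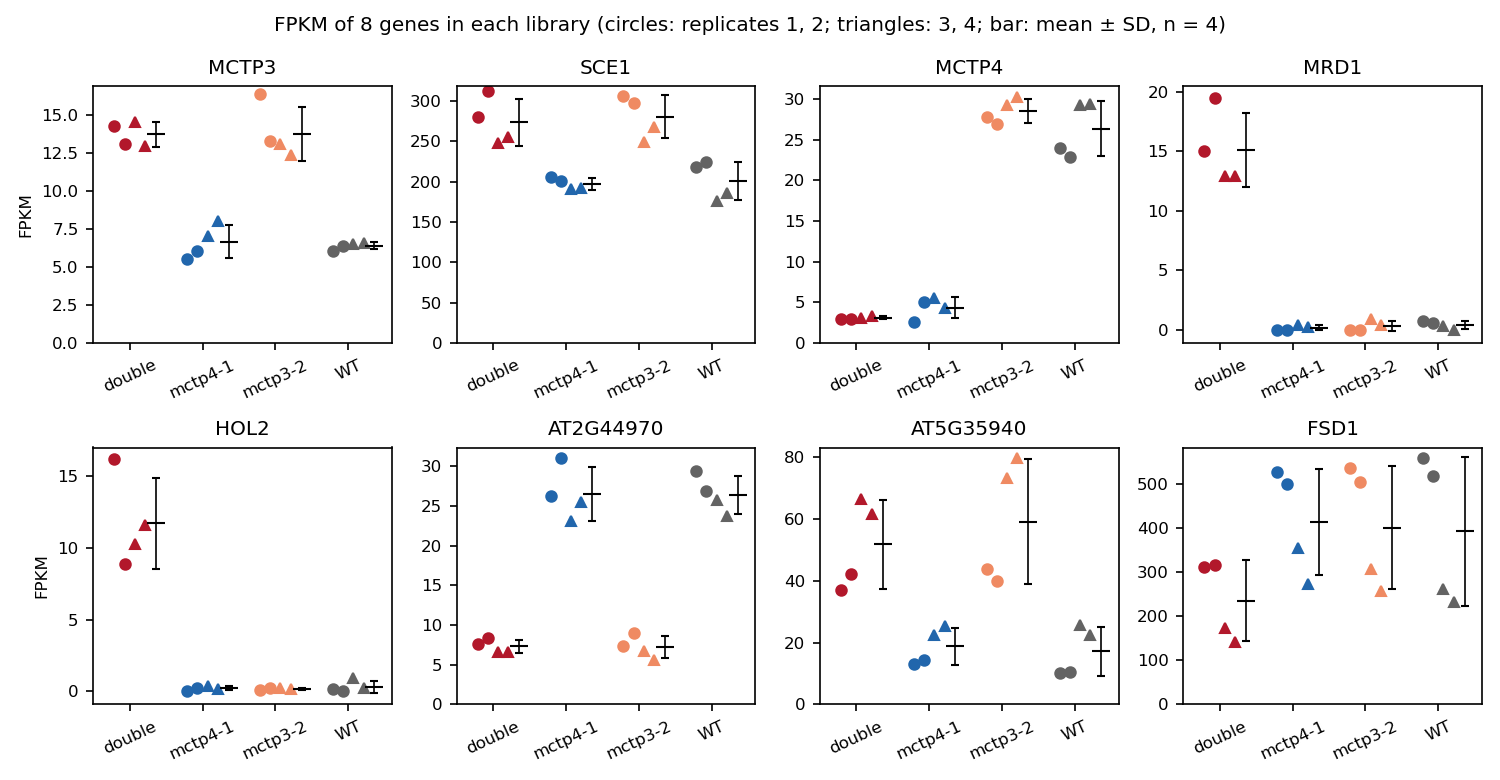
FPKM of 8 genes in each library of the 4 genotypes, double, mctp4-1, mctp3-2 and WT from left to right; circles are replicates 1 and 2, triangles replicates 3 and 4, and bars give the mean ± SD (n = 4). MCTP3, SCE1, AT2G44970 and AT5G35940 differ in the same direction in both genotypes with the mctp3-2 allele, whereas MRD1 and HOL2 are high in the double alone, FSD1 is lowest in the double within each replicate group, and MCTP4 is low in double and mctp4-1.

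Few transcripts passed the test between double and mctp4-1 roots, and some of them differed by a large factor. A gene that was not called is not shown to be unchanged. Genes were called with limma at a Benjamini-Hochberg adjusted p under 0.05, with the replicate number as a block. In double against mctp4-1, 60 genes were called, which is 0.312% of those tested. Of these, 20 were higher in the double (0.104%) and 40 were lower (0.208%), with median log2 changes of 0.81 and −0.84, and the median over all genes tested was 0.007. All 60 had the same sign in all 4 pairs of libraries, and in 43 of the 60 the 4 double libraries did not overlap the 4 mctp4-1 libraries, which held for 1.93% of all genes tested. The count depended on the block: 12 genes (0.0624%) were called without it, all of them among the 60. These 12 were MRD1, HOL2, AT1G21520, AT2G41640, MCTP3 and AT5G03545, all higher, and MAM1, AT2G41650, CYP83A1, AT2G44970, AT5G35935 and ALPHA-VPE, all lower. The count also depended on single libraries, with 30, 27 and 31 calls without mctp4-1 replicate 2, 3 and 4, and 22 of the 60 genes were called whichever 1 of the 8 libraries was left out. Because each of the 60 had 1 sign in all 4 pairs, it had to keep it within replicates 1 and 2 and within replicates 3 and 4. This is no separate support. Of all genes tested 54.1% had the same sign in both groups of replicates. Within each replicate group 9 genes (replicates 1 and 2) and 30 genes (replicates 3 and 4) were called. In bulk roots, fewer cells of a type and less RNA per cell cannot be told apart.

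**Figure D2:**
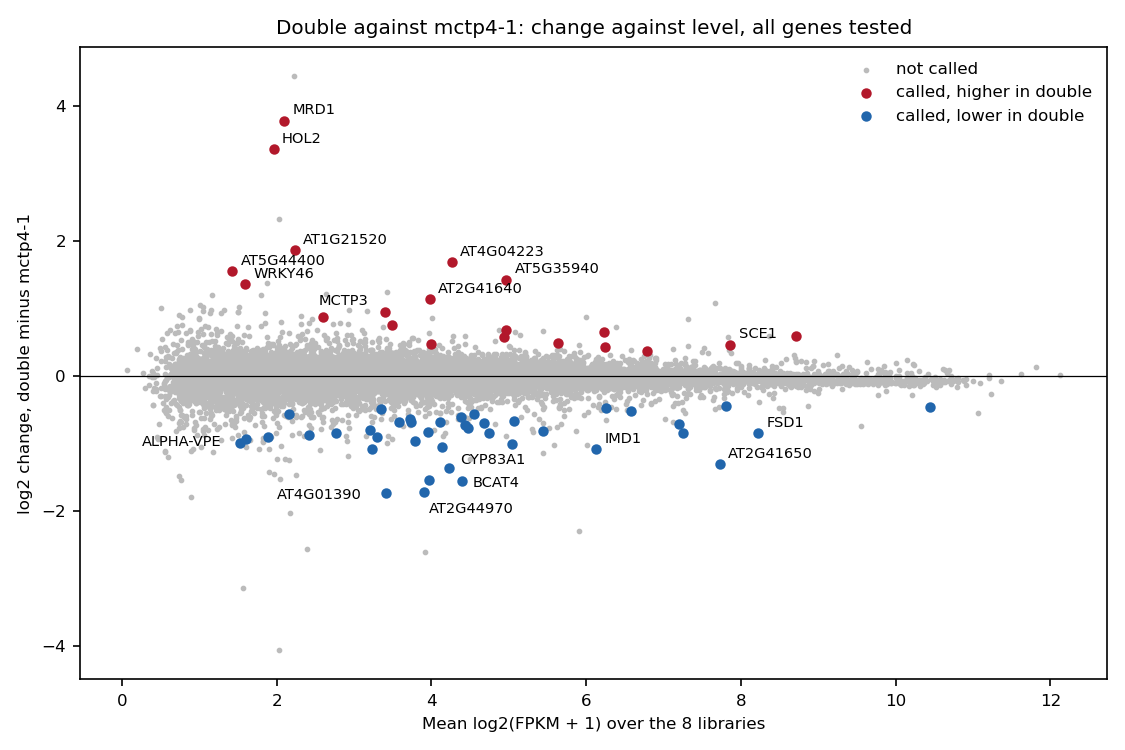
The log2 change, double minus mctp4-1, against the mean log2(FPKM + 1) over the 8 libraries, for each gene tested; red points were called higher in the double (20), blue points lower (40) and grey points were not called. MRD1 (3.78) and HOL2 (3.36) lie above the other called genes.

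A pair of genes were close to silent in mctp4-1 roots and expressed in every double library. MRD1 (AT1G53480, chr1:19963047-19964712, minus strand), named after its lower transcript in the methionine over-accumulating mto1 mutant, was at 15.0, 19.5, 12.9 and 12.9 FPKM in double replicates 1 to 4. In mctp4-1 replicates 1 to 4 it was listed at 0, 0, 0.411 and 0.258 FPKM. HOL2 (AT2G43920, chr2:18189004-18191348, minus strand), a relative of the methyltransferase HOL1 that methylates halide and thiocyanate ions, was at 16.2, 8.87, 10.3 and 11.6 FPKM in double replicates and at 0.0652, 0.257, 0.365 and 0.199 FPKM in mctp4-1 replicates. For both genes all double libraries lay above all mctp4-1 libraries. The filter fixed this in advance: both genes were below 1 FPKM in every other library and were tested only through the 4 double libraries. The separation is therefore no separate support. With no filter on low values the limma adjusted p was 1.27e-05 for MRD1 and 4.66e-06 for HOL2. The log2 change was 3.78 ± 0.23 SE for MRD1 (limma adjusted p = 4.68e-07) and 3.36 ± 0.19 SE for HOL2 (limma adjusted p = 2.71e-07). With a pseudocount of 0.1 in place of 1 these changes were 6.18 and 5.26, and within replicates 1 and 2 and replicates 3 and 4 they were 4.18 and 3.38 for MRD1 and 3.49 and 3.22 for HOL2. The added 1 compresses changes of genes near 0.

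Neither gene followed the mctp3-2 allele in roots with intact MCTP4. MRD1 was at most 0.917 FPKM in mctp3-2 and 0.766 FPKM in WT, and HOL2 at most 0.243 FPKM in mctp3-2 and 0.935 FPKM in WT. The change in double against mctp4-1 exceeded that in mctp3-2 against WT by 3.88 for MRD1 (limma adjusted p = 3.80e-05) and by 3.47 for HOL2 (limma adjusted p = 2.11e-05). Both genes passed the filter only through the double, the genotype in which they are high, so these p-values describe genes selected on that group. The other 2 HOL genes were expressed in all libraries and did not pass the test: HOL1 was at 287 to 429 FPKM in double and 299 to 537 FPKM in mctp4-1 roots, and HOL3 at 47.0 to 54.9 FPKM in double and 46.7 to 53.6 FPKM in mctp4-1 roots. MRD1 shares 1446 bp with HEI10 on the opposite strand, which reached at most 3 FPKM in any library. It also shares 1039 bp with the non-coding RNA gene AT1G07887 on the opposite strand, which is not in the matrix and so has no level here. Whether the counting used the strand is not given in the sources used here.

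Other increases were smaller and joined genes of varied roles. AT1G21520, an uncharacterized protein gene, was at 10.7, 12.2, 5.54 and 5.34 FPKM in double replicates and 1.76, 0.770, 2.37 and 1.24 FPKM in mctp4-1 replicates, a log2 change of 1.86 ± 0.24 SE (limma adjusted p = 0.0032), with 2.50 in replicates 1 and 2 and 1.23 in replicates 3 and 4. AT5G44400, a berberine bridge enzyme family gene, was at 7.45, 3.79, 1.83 and 2.88 FPKM in double replicates and 0.639, 1.27, 0.347 and 0.214 FPKM in mctp4-1 replicates, a log2 change of 1.55 (limma adjusted p = 0.0032). WRKY46, a transcription factor of defence and drought responses, was at 4.34, 3.02, 6.21 and 2.48 FPKM in double replicates and 0.482, 0.725, 1.83 and 0.729 FPKM in mctp4-1 replicates, a log2 change of 1.36 (limma adjusted p = 0.00978). In each of these genes the lowest double library lay above the highest mctp4-1 library. With a pseudocount of 0.1 the change was 2.55 for AT5G44400 and 2.05 for WRKY46. Each of these genes was called whichever 1 of the 8 libraries was left out. Without the block the calls of AT5G44400 (limma adjusted p = 0.0913) and WRKY46 (limma adjusted p = 0.0583) were lost. The 8 compared libraries alone did not call AT1G21520 (limma adjusted p = 0.15) or AT5G44400 (limma adjusted p = 0.052). WRKY46 was not called without replicate 1, 2 or 4 of every genotype (limma adjusted p = 0.0583 to 0.105). WRKY46 was the 1 called of 8 defence WRKY genes tested, beside 0.312% called of all genes tested. Of the 8, 6 had values below 0, with a list median of −0.20.

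Further genes that rose in the double were FLC, the MADS-box repressor of flowering, by 0.87 (limma adjusted p = 0.0251), the acyl-carrier-protein desaturase gene AT3G02620 by 0.75 (limma adjusted p = 0.023) and the methyltransferase family gene AT1G69526 by 0.67 (limma adjusted p = 0.00559). FLC was at 6.78, 13.3, 4.50 and 6.49 FPKM in double replicates and at 4.12, 3.86, 2.47 and 3.71 FPKM in mctp4-1 replicates, so double replicate 2 was highest. FLC is overlapped along its length by the non-coding RNA gene AT5G01675 on the opposite strand. The FLC call was lost when any of 6 libraries was left out, double replicate 3 or 4 or any mctp4-1 replicate (limma adjusted p = 0.0553 to 0.115). The call of AT3G02620 was lost without double replicate 3 or 4 or mctp4-1 replicate 1, 2 or 4 (limma adjusted p = 0.0809 to 0.104). With a term for replicates 1 and 2 against 3 and 4 in place of the 4 replicate numbers, neither FLC (limma adjusted p = 0.0881) nor AT3G02620 (limma adjusted p = 0.171) was called.

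AT2G41640 and AT2G41650 are neighbours on chromosome 2 that share 1144 bp on the same strand, and they went in opposite directions. AT2G41640, a glycosyltransferase family 61 gene, was at 23.9, 20.9, 23.4 and 21.3 FPKM in double replicates and 8.54, 7.99, 13.3 and 9.55 FPKM in mctp4-1 replicates, a log2 change of 1.13 ± 0.14 SE (limma adjusted p = 0.0021). AT2G41650, an uncharacterized gene, was at 122, 159, 132 and 124 FPKM in double replicates and 364, 289.8, 369 and 312 FPKM in mctp4-1 replicates, a log2 change of −1.31 ± 0.09 SE (limma adjusted p = 2.35e-06). Neither gene's groups overlapped. How fragments in the shared stretch were divided between both genes is not given in the sources used here, so their split is uncertain. AT2G41650 fell by more than it did in mctp3-2 against WT (difference −1.05, limma adjusted p = 0.0028).

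The same allele set against WT gave fewer calls and shared some of them. In mctp3-2 against WT 11 genes were called, 3 higher and 8 lower, which is 0.0572% of genes tested. These 8 libraries are not those of double against mctp4-1, though both comparisons share the fit and its estimate of spread. Of the 60 genes called in double against mctp4-1, 7 were also called in mctp3-2 against WT, 6 of them in the same direction. These 6 were MCTP3, SCE1, AT5G35940, AT2G44970, ALPHA-VPE and AT5G35935. AT2G44970, an alpha/beta-hydrolase family gene (chr2:18548813-18552171, minus strand), was at 7.62, 8.37, 6.63 and 6.66 FPKM in double replicates and 26.3, 31.1, 23.1 and 25.5 FPKM in mctp4-1 replicates. The levels were alike in roots with intact MCTP4, 5.65 to 9.05 FPKM in mctp3-2 and 23.7 to 29.4 FPKM in WT. The log2 change was −1.72 ± 0.08 SE in double against mctp4-1 (limma adjusted p = 6.35e-08) and −1.75 in mctp3-2 against WT (limma adjusted p = 2.43e-08), and the first was −1.72 within each replicate group.

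AT5G35940 and AT5G35935, neighbours on chromosome 5, moved in opposite directions in both comparisons. AT5G35940, a mannose-binding lectin family gene (chr5:14090574-14093007, plus strand), was at 37.0, 42.2, 66.4 and 61.7 FPKM in double replicates and at 13.1, 14.2, 22.6 and 25.2 FPKM in mctp4-1 replicates, a log2 change of 1.43 ± 0.10 SE (limma adjusted p = 1.29e-06). It rose by 1.77 in mctp3-2 against WT (limma adjusted p = 6.17e-08), and its level was higher in replicates 3 and 4 in every genotype. The call in double against mctp4-1 was lost without the block (limma adjusted p = 0.298), although each pair differed by 1.26 to 1.52. AT5G35935, annotated as a pseudogene and so uncertain where related copies share its reads, was at 1.3, 1.85, 1.87 and 1.85 FPKM in double replicates and at 4.27, 3.98, 4.27 and 3.70 FPKM in mctp4-1 replicates, a log2 change of −0.90 ± 0.12 SE (limma adjusted p = 0.00297). In mctp3-2 it was at 0.0701 to 0.153 FPKM, against 3.38 to 4.49 FPKM in WT. Its decrease was smaller in double against mctp4-1 by 1.28 (limma adjusted p = 0.00383). ALPHA-VPE, a vacuolar cysteine protease gene, had a similar order of levels, with 0.986 to 1.58 FPKM in double, 2.75 to 3.88 FPKM in mctp4-1, 0.117 to 0.477 FPKM in mctp3-2 and 1.64 to 3.11 FPKM in WT, but here the difference between the comparisons did not pass the test (0.50, limma adjusted p = 0.959).

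Most of the 60 genes had a smaller change in mctp3-2 against WT. Among the 20 genes higher in the double, the median log2 change in mctp3-2 against WT was 0.13 and 12 had the same sign. Among the 40 lower genes the median was −0.04 and 25 had the same sign. Of all genes tested 55.6% had the same sign in both comparisons, and the median change in mctp3-2 against WT was 0.049. The change was smaller in size in mctp3-2 against WT for 16 of the 20 higher and 37 of the 40 lower genes. A gene picked for its change in the first comparison is likely to show a smaller one in the second, so these counts are descriptions, and the test of the difference is the interaction.

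The interaction, the change in double against mctp4-1 minus the change in mctp3-2 against WT, was called for 10 genes (0.052%), 7 above 0 and 3 below. Of these, 7 were among the 60: MRD1, HOL2 and AT4G04223 of the higher genes, and AT2G41650, FSD1, AT3G45160 and AT5G35935 of the lower ones. AT4G04223, a non-coding RNA gene, went in opposite directions. It was at 22.7, 72.1, 18.6 and 40.3 FPKM in double replicates and 11.1, 10.9, 6.98 and 10.5 FPKM in mctp4-1 replicates, a log2 change of 1.68 ± 0.22 SE (limma adjusted p = 0.00659). In roots with intact MCTP4 it was at 3.65, 7.18, 4.09 and 5.29 FPKM in mctp3-2 and 24.5, 26.8, 16.8 and 21.5 FPKM in WT, a log2 change of −1.97 (limma adjusted p = 0.00311), so the single mutants were low, and the double overlapped WT. The interaction was 3.65 (limma adjusted p = 0.00026). Its call in double against mctp4-1 was lost without the block (limma adjusted p = 0.097) and lay just outside the threshold with a term for the 2 groups of replicates (limma adjusted p = 0.0505).

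A further 3 genes with a called interaction had no called change in double against mctp4-1. AT5G24240, a phosphatidylinositol 4-kinase gamma-like gene, was at 2.08, 2.34, 1.23 and 1.89 FPKM in double replicates and at 2.48, 2.73, 1.71 and 1.62 FPKM in mctp4-1 replicates. In roots with intact MCTP4 it was at 2.2, 2.46, 1.50 and 2.03 FPKM in mctp3-2 and at 33.1, 40.9, 33.6 and 41.7 FPKM in WT, so all mutant libraries lay far below all WT libraries. Its interaction was 3.53 (limma adjusted p = 2.18e-08). AT4G08093, a transcribed pseudogene, had the same order, with at most 0.224 FPKM in double, 0.0417 FPKM in mctp4-1 and 0.0919 FPKM in mctp3-2, against 2.26 to 3.0 FPKM in WT, and an interaction of 1.92 (limma adjusted p = 0.000229). AT4G08093 passed the filter only through the WT libraries. Its WT level above all mutant libraries was thus fixed in advance and is no separate support. The non-coding RNA gene AT5G38005, at 40.0 to 76.1 FPKM in double and 30.3 to 56.8 FPKM in mctp4-1, had an interaction of 1.22 (limma adjusted p = 0.0316).

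**Figure D3:**
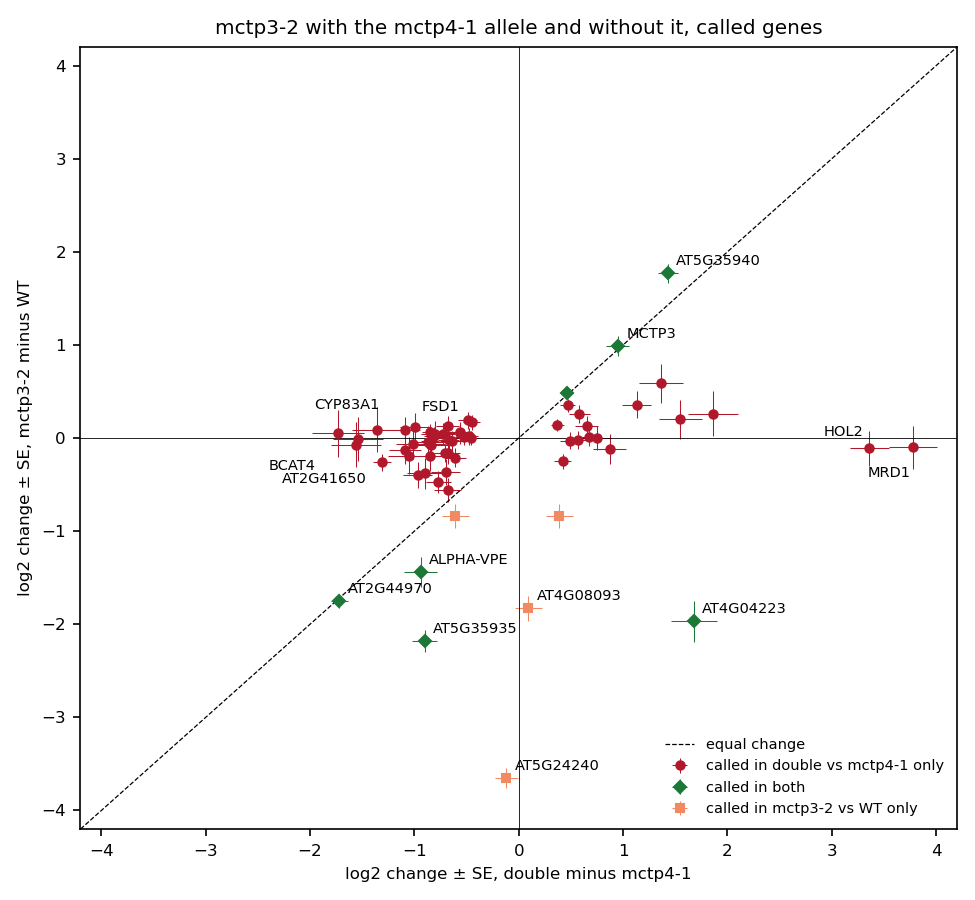
The log2 change ± SE in double minus mctp4-1 (x axis) against that in mctp3-2 minus WT (y axis) for each gene called in either comparison, with the dashed line marking equal change. AT2G44970, MCTP3 and AT5G35940 lie close to the line, MRD1 and HOL2 lie near 0 on the y axis, and AT5G24240 and AT4G08093 lie near 0 on the x axis.

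The gene list with the most calls was the synthesis of aliphatic glucosinolates, and all of its calls were decreases. These sulfur-rich defence compounds of the cabbage family are made from methionine, which is deaminated, lengthened in plastids by a cycle of condensation, isomerization and oxidation, and then turned into the glucosinolate core by cytochromes P450, a C-S lyase, glycosyltransferases and sulfotransferases. Of 18 genes listed for this pathway 14 were tested, 5 fell and 0 rose in double against mctp4-1, where 0.208% of all genes tested fell and 0.104% rose. All 14 had a log2 change below 0, and the list median was −0.70, against 0.007 for all genes. The lists were chosen with earlier results of these data known, so these counts are descriptions and no independent test. In mctp3-2 against WT 0 of the 14 were called and their median was 0.06. The 4 listed genes that were not tested, CYP79F1, FMO GS-OX1, MYB29 and MYB76, were below 1 FPKM in all 8 libraries.

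BCAT4, the aminotransferase that starts the pathway from methionine, was at 14.5, 8.73, 11.4 and 11.4 FPKM in double replicates 1 to 4 and 40.8, 43.6, 25.6 and 33.7 FPKM in mctp4-1 replicates 1 to 4, a log2 change of −1.56 ± 0.24 SE (limma adjusted p = 0.0222). MAM1, the synthase that condenses the chain with acetyl-CoA, was at 5.69, 3.6, 6.05 and 7.05 FPKM in double replicates and 11.4, 13.8, 10.4 and 16.0 FPKM in mctp4-1 replicates, a log2 change of −1.09 ± 0.15 SE (limma adjusted p = 0.00364). IMD1, the dehydrogenase of the elongation cycle, was at 55.1, 39.9, 47.3 and 47.6 FPKM in double replicates and 113, 117, 86.4 and 92.0 FPKM in mctp4-1 replicates, a log2 change of −1.09 ± 0.14 SE (limma adjusted p = 0.0032). All double libraries were below all mctp4-1 libraries for these 3 genes. CYP83A1, the cytochrome P450 that oxidizes aldoximes made from methionine, was at 11, 6.10, 12.4 and 15.5 FPKM in double replicates and 26.7, 28.7, 30.3 and 31.2 FPKM in mctp4-1 replicates, a log2 change of −1.36 ± 0.24 SE (limma adjusted p = 0.0376). SOT17, a sulfotransferase of the last core step that is named here after its value was seen, fell by 0.56 on the log2 scale (limma adjusted p = 0.0384), and its groups overlapped.

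The other 9 members did not pass the test. The chain-elongation synthase gene IMS2 had a log2 change of −0.81 (limma adjusted p = 0.0916), the glycosyltransferase gene AT2G31790 −0.83 (limma adjusted p = 0.184) and CYP79F2, the P450 gene before CYP83A1, −0.80 (limma adjusted p = 0.148). The plastid transporter gene BAT5 had −0.61, SOT18 −0.46, the isomerase subunit gene IIL1 −0.37, SUR1, the C-S lyase gene, −0.33 and BCAT3 −0.07. MYB28, a transcription factor that activates the pathway, had −0.48 (limma adjusted p = 0.522). Outside the list, IPMI2, a small subunit of isopropylmalate isomerase that is named here after its value was seen, fell by 0.85 (limma adjusted p = 0.0376).

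The decrease was present in both replicate groups and was largest in 1 pair: the mean over the 14 members was −0.65, −1.27, −0.42 and −0.64 in the pairs of replicates 1 to 4, or −0.96 in replicates 1 and 2 and −0.53 in replicates 3 and 4. All 14 members had their lowest paired difference in the pair of replicate 2, which holds the double library with the highest green tissue sum, whose part in the result was not tested. Without double replicate 2 the list median was −0.49, 13 of the 14 were below 0 and 6 were called. The number of called members was 4 without double replicate 4, 8 without double replicate 3, 3 without double replicate 1 and 2 whichever mctp4-1 replicate was left out, and it was 2 without the block. It was 0 without replicate 1 of every genotype, 1 without replicate 4 of every genotype and 1 within replicates 1 and 2. The calls of BCAT4 and CYP83A1 were lost when double replicate 1 or any mctp4-1 replicate was left out (limma adjusted p = 0.0655 to 0.107 for BCAT4 and 0.0706 to 0.198 for CYP83A1), while IMD1 and MAM1 were called whichever 1 of the 8 libraries was left out. Without replicate 1 of every genotype the calls of IMD1 (limma adjusted p = 0.0849) and MAM1 (limma adjusted p = 0.0651) were lost too, and MAM1 was not called without replicate 4 of every genotype (limma adjusted p = 0.0607) or within replicates 1 and 2 (limma adjusted p = 0.143). None of the 14 members was called in the interaction, where the lowest adjusted p was that of IMD1 (−1.18, limma adjusted p = 0.0612).

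**Figure D4:**
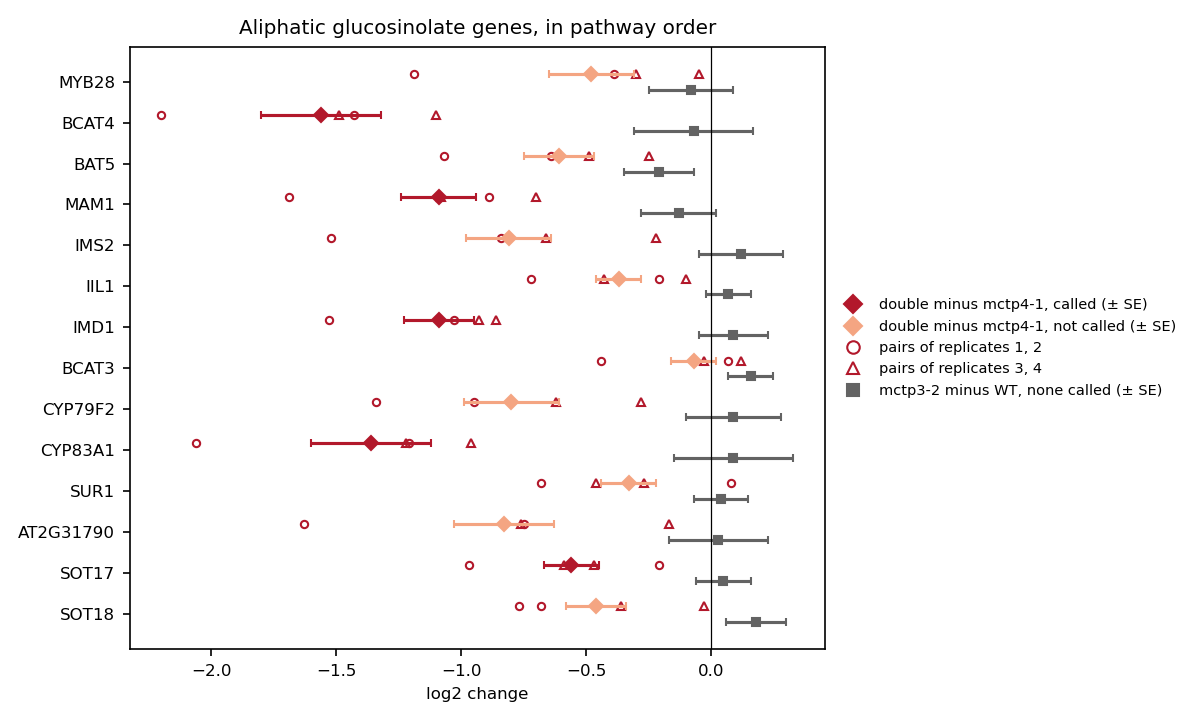
The log2 change of 14 aliphatic glucosinolate genes, from the activator MYB28 through the steps of the pathway to SOT18, in double minus mctp4-1 (diamonds, ± SE; dark where called) with the differences of the 4 pairs of libraries (open symbols), and in mctp3-2 minus WT (grey squares, ± SE). All 14 diamonds lie below 0, BCAT4 lowest at −1.56, and the grey squares lie around 0.

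The 250 bases before the annotated start of 4 of these genes were read from the RefSeq TAIR10.1 genome, to show the sequence in front of a strongly raised gene (HOL2), a raised regulator (WRKY46) and 2 steps of the lowered pathway (BCAT4 and IMD1). They lie at chr2:18191349-18191598 (minus strand), chr2:19044956-19045205 (minus strand), chr3:6849583-6849832 (minus strand) and chr5:4575873-4576122 (plus strand), in stretches that hold no other annotated gene. Each is written 5′ to 3′ on the strand of its gene, and capitals mark a W-box core, the letters TTGAC read on either strand, which WRKY factors are known to bind.
HOL2: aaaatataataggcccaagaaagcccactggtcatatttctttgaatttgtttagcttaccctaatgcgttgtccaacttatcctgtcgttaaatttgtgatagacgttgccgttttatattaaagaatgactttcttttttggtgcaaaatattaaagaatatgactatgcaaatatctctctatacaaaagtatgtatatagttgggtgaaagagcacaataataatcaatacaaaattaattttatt
WRKY46: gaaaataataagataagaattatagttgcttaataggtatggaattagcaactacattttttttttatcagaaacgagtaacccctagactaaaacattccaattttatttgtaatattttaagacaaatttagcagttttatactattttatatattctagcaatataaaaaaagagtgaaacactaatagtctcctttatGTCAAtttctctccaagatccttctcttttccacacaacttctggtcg
BCAT4: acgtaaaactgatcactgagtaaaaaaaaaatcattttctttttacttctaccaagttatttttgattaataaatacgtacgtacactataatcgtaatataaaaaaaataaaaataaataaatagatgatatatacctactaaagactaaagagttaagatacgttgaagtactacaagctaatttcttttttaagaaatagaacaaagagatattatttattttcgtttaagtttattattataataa
IMD1: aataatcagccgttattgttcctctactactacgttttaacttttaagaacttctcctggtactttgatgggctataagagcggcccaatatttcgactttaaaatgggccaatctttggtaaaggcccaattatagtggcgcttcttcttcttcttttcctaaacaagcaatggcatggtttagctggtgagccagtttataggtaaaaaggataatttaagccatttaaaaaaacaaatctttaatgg
The WRKY46 window holds the W-box core once, on the opposite strand (GTCAA), and none of the others holds it. In windows of this length the W-box core was present before 12 of 19 protein-coding genes called higher (63.2%), 18 of 39 called lower (46.2%) and 45.2% of 18739 tested protein-coding genes. The G-box CACGTG was present before 3 of the 19 (15.8%), 4 of the 39 (10.3%) and 7.35% of the tested genes. These are matches of letters in a window, with no test.

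Other decreases included defence, redox and nutrient genes. AT4G01390, a TRAF-like family gene, was at 7.80, 5.88, 1.78 and 5.86 FPKM in double replicates and 15.2, 24.4, 17.4 and 17.4 FPKM in mctp4-1 replicates, a log2 change of −1.73 ± 0.25 SE (limma adjusted p = 0.0155). AT1G65370, of the same family, fell by 0.97 (limma adjusted p = 0.0052), with 6.76 to 10.5 FPKM in double and 17.6 to 19.7 FPKM in mctp4-1 roots. The serine carboxypeptidase-like gene scpl31 was at 15.4, 8.09, 4.70 and 7.43 FPKM in double replicates and 23.7, 32.2, 24.2 and 24.0 FPKM in mctp4-1 replicates, a log2 change of −1.54 ± 0.24 SE (limma adjusted p = 0.0231). The groups did not overlap for these 3 genes. The AT4G01390 call was lost without double replicate 2 or mctp4-1 replicate 2, 3 or 4 (limma adjusted p = 0.059 to 0.0777), and the scpl31 call without replicate 2, 3 or 4 of either genotype (limma adjusted p = 0.0588 to 0.113).

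FSD1 (AT4G25100, chr4:12884300-12887011, minus strand), the iron superoxide dismutase that plants use when copper is scarce, was at 311, 315, 172 and 141 FPKM in double replicates 1 to 4 and 527, 498, 355 and 273 FPKM in mctp4-1 replicates 1 to 4. The groups overlapped because replicates 3 and 4 were lower in both genotypes, but the double was lower in all 4 pairs, by 0.66 to 1.04 on the log2 scale. The log2 change was −0.85 ± 0.08 SE (limma adjusted p = 7.16e-05), with −0.71 in replicates 1 and 2 and −0.99 in replicates 3 and 4, and without the block it was not called (limma adjusted p = 1). In mctp3-2 against WT it was 0.07, and the difference between the comparisons was −0.92 (limma adjusted p = 0.0022). FSD1 is also expressed in green tissue, and double replicates 1 and 2 had close FSD1 levels of 311 and 315 FPKM at green tissue sums of 74.8 and 281 FPKM. The part of green tissue in the result was not tested. FSD1 was the 1 called of 10 copper status genes, whose median was −0.21, beside 0.312% called of all genes tested. The copper transporter gene COPT2 had −0.64, the reductase genes FRO4 and FRO5 −0.60 and −0.77, and the metal transporter gene ZIP2 −0.40, none past the test, and the copper superoxide dismutase gene CSD1 had 0.15.

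PAD3, the P450 of the last step of camalexin synthesis, was at 6.32, 3.72, 6.70 and 7.99 FPKM in double replicates and 9.12, 8.98, 13.7 and 13.8 FPKM in mctp4-1 replicates, a log2 change of −0.80 ± 0.14 SE (limma adjusted p = 0.0231). The call was lost without double replicate 2 or 3 or mctp4-1 replicate 2, 3 or 4 (limma adjusted p = 0.0537 to 0.13). PAD3 was the 1 called of 10 genes of indole glucosinolate and camalexin synthesis, beside 0.312% called of all genes tested. Of the 10, 9 were below 0, with a median of −0.19. GSTU20, a glutathione transferase gene, was at 42.7, 26.2, 13.8 and 15.7 FPKM in double replicates and 68.0, 69.7, 26.3 and 35.7 FPKM in mctp4-1 replicates, a log2 change of −1.01 (limma adjusted p = 0.0254), and its call was lost without double replicate 4 or mctp4-1 replicate 2, 3 or 4 (limma adjusted p = 0.0777 to 0.136). AT4G12870, a thiol reductase family gene, fell by 0.99 (limma adjusted p = 0.00957, or 0.0514 without mctp4-1 replicate 2). AT4G07820, a gene of the CAP family that includes pathogenesis-related protein 1, fell by 1.05 but lay at the limit (limma adjusted p = 0.0472). Its call was lost whichever 1 of the 8 libraries was left out, except double replicate 2 (limma adjusted p = 0.0872 to 0.233), and it was also lost with a term for the 2 groups of replicates (limma adjusted p = 0.282). The genes nearest the threshold were GLP4 and AT4G07820 inside it (adjusted p = 0.0472 each in limma) and GSR2 and AT4G33420 outside it (adjusted p = 0.0511 each in limma).

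Vascular genes had mostly positive values and few calls. Of 25 genes of xylem and secondary walls, 23 were above 0 and the median was 0.22. Beside 0.312% called of all genes tested, 1 of the 25 was called. This was IRX6, a COBRA-like protein gene of secondary wall cellulose, at 17.3, 19.1, 17.1 and 17.4 FPKM in double replicates and 12.8, 13.4, 10.7 and 13.4 FPKM in mctp4-1 replicates, a log2 change of 0.47 ± 0.07 SE (limma adjusted p = 0.00957, or 0.0613 without mctp4-1 replicate 3). The secondary wall cellulose synthase genes CESA4, IRX3 and IRX1 had values of 0.25, 0.35 and 0.22, and the tracheary protease gene XCP1 0.26, none past the test. The xylem list had a median of 0.19 in mctp3-2 against WT. All 15 phloem genes were above 0, with a median of 0.16, and 0 were called. The largest were the sugar transporter genes SWEET12 at 1.25 ± 0.56 SE and SWEET11 at 0.95 ± 0.45 SE. SWEET12 was at 6.80, 34.3, 25.6 and 9.20 FPKM in double replicates and 8.74, 7.82, 2.92 and 5.98 FPKM in mctp4-1 replicates, so 2 double libraries carried its value.

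**Figure D5:**
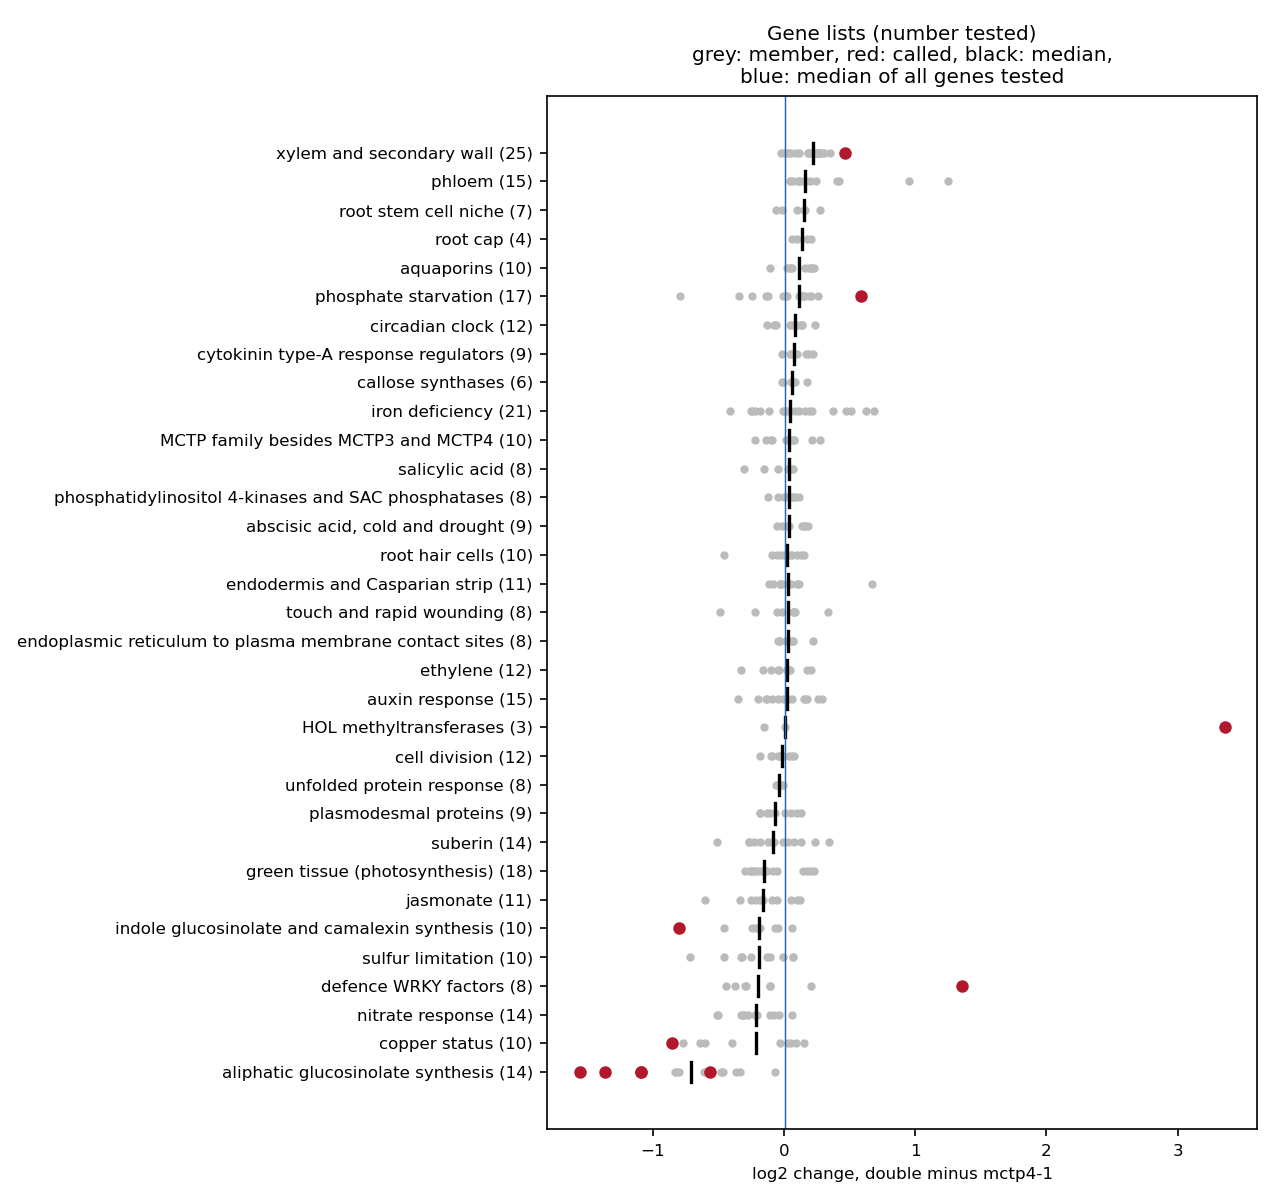
The log2 change, double minus mctp4-1, of each tested member of 33 gene lists, with the number tested in brackets; called members are red, others grey, black bars mark list medians and the blue line the median of all genes. List medians run from −0.70 for aliphatic glucosinolate synthesis to 0.22 for xylem and secondary wall, and 26 of the 33 lists hold no called gene.

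Over 33 lists with 407 genes, 366 were tested and 11 were called, in 7 lists, beside 0.312% called of all genes tested; the lists were chosen with earlier results of these data known. Beside those named, the called members were AT5G03545 among 17 tested phosphate starvation genes, and HOL2. AT5G03545, annotated as expressed in response to phosphate starvation, was at 474, 571, 456 and 556 FPKM in double replicates and 311, 330.3, 363 and 364 FPKM in mctp4-1 replicates, a log2 change of 0.58 ± 0.10 SE (limma adjusted p = 0.0158), and the list median was 0.11. Its call was lost without double replicate 4 or mctp4-1 replicate 1 or 2 (limma adjusted p = 0.069 to 0.0748). Of 14 nitrate response genes 13 were below 0 with a median of −0.21, and 0 were called. The 10 tested genes of the MCTP family besides MCTP3 and MCTP4, at −0.22 to 0.27, had 0 calls. The 9 plasmodesmal protein genes had values of −0.19 to 0.13, the 8 genes for tethers of the endoplasmic reticulum at the plasma membrane −0.04 to 0.22 and the 6 callose synthase genes −0.02 to 0.18, also with 0 calls. Lists for auxin, ethylene, jasmonate, salicylic acid, cytokinin, iron deficiency, the unfolded protein response, the clock and cell division held 0 called genes each, and their medians lay between −0.16 and 0.08.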

How the data were processed

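Root RNA was sequenced with a stranded kit for polyadenylated RNA, per the labels' protocols. Alignment and quantification tools named in the submitters' processing notes are HISAT2 and Cufflinks, with TAIR10 as the build; versions, settings and strandedness of counting were not given in the sources used here. FPKM per gene were deposited by the authors, so depth and gene length were already divided out. In the 15 libraries set against WT replicate 1, at most 55.2% of low genes lay on whole-fragment steps (tolerance 0.05 on the log2 scale), so reads were not recovered, depth is unknown and precision rests on the spread of 4 libraries.

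FPKM below 0.001 were taken as 0. Positions and names are from RefSeq TAIR10.1, which held 32826 of the 33560 genes; no coordinates were converted. Genes at 1 FPKM or more in at least 4 libraries were fitted as log2(FPKM + 1) with limma 3.58.1 in R 4.3.3: genotype means over all 16 libraries, replicate number as a block, mean-variance trend and robust moderation, 2-sided tests, Benjamini-Hochberg adjustment over 19239 genes. Fold changes on this scale understate those of low genes. The fit was tested on simulated data with independent normal residuals, where only well-expressed genes were changed. The simulation does not cover genes near 0 or libraries that are not independent. Members, gene lists and tests were chosen with earlier results of these data known.

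The pairing comes from the replicate numbers. All 24 same-number pairs of different genotypes correlated at 0.203 to 0.556 in their deviations from genotype means. Pairs with different numbers inside replicates 1 and 2 or inside 3 and 4 reached 0.185 to 0.524. Between double and mctp4-1, same-number pairs were at 0.211 to 0.438 and those other pairs at 0.276 to 0.492. The values thus match 2 groups of replicates and do not single out matching by number. What a number marks is not stated in the labels.

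Named genes were MCTP3, MCTP4, the 12 called genes that rose most and the 12 that fell most with 1 sign in all 4 pairs, up to 4 called members of each list, up to 5 interaction genes and called genes within 50 kb of MCTP3 or MCTP4; others are examples.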

Additional observations from a re-analysis of the deposited data

Results flagged for a closer look

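Within genotypes, 3 of 64 groups of 4 libraries had a library far from the other 3; chance flags about 1 in 20 groups. AT4G04223 was at 6.98 FPKM in mctp4-1 replicate 3, below 10.5 to 11.1 FPKM in the other mctp4-1 libraries, and scpl31 was at 32.2 FPKM in mctp4-1 replicate 2, above 23.7 to 24.2 FPKM in the others. IRX6 was at 19.1 FPKM in double replicate 2, above 17.1 to 17.4 FPKM in the other double libraries.

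The change in double against mctp4-1 differed from that in mctp3-2 against WT by the interaction test in limma for 7 of the genes picked by the naming rule. The interaction on the log2 scale was 3.88 for MRD1, 3.47 for HOL2, 3.65 for AT4G04223, 3.53 for AT5G24240 and 1.92 for AT4G08093. It was −1.05 for AT2G41650 and −0.92 for FSD1. The interaction was also called for AT5G35935, AT3G45160 and AT5G38005, which the rule did not pick.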

How the results depend on the processing

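The 60 calls in double against mctp4-1 depended on the fit more than on the scaling. The count was 12 without the replicate block, 27 with the 8 compared libraries alone (20 of them among the 60), 9 within replicates 1 and 2 and 30 within replicates 3 and 4. It ranged from 20 to 69 when 1 replicate was left out; it was 30, 27 and 31 without mctp4-1 replicate 2, 3 and 4, and 21, 31 and 20 without replicate 1, 3 and 4 of every genotype. Of the 60 genes, 22 were called in each of the 8 fits that left out 1 double or mctp4-1 library. A term for the 2 groups of replicates in place of the replicate number gave 58 calls, 51 of them among the 60. It gave 9 calls for mctp3-2 against WT and 12 for the interaction. Among the named genes it ended the calls of FLC, AT3G02620, AT4G07820 and AT4G04223. Another pseudocount, filter, scaling or moderation gave 48 to 59 calls, 44 to 56 of them among the 60. For mctp3-2 against WT (11 calls), the count was 6 without the replicate block, 5 within replicates 1 and 2 and 7 within replicates 3 and 4, and 7 to 11 with a replicate left out (7 without replicate 3 or 4). For the interaction (10 calls), it was 3 within replicates 1 and 2 and 5 to 12 with a replicate left out (5 without replicate 3 or 4). Among 32 named genes under 23 settings, 542 of 732 values kept their direction and side of the threshold, 190 lost the call and 0 changed sign. The 29 called genes among them had 1 sign in all 4 pairs, so a change of sign was unlikely from the start. MCTP4, AT5G24240 and AT4G08093 were not called in the main fit and had no call to lose. The cause of these shifts was not tested, and unknown depth limits what can be said of genes near 0.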
